A study of Mus musculus with 4 samples.

Results

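The distal nephron, from the thick ascending limb to the principal cells, was examined in young and aged kidneys, as 4 gates drawn on single-cell counts from the renal cortex of male mice. A barcode entered when it held at least 1000 detected genes, at most 50% mitochondrially encoded counts and fewer than 5 counts of the proximal tubule gene Slc34a1 per 10000 unique molecular identifiers (UMIs). It then had to reach, per 10000 UMIs, 40 counts of Slc12a1 plus Umod (thick ascending limb, TAL), 5 of Slc12a3 (distal convoluted tubule, DCT), 30 of Calb1 plus S100g (connecting tubule, CNT) or 30 of Aqp2 plus Fxyd4 (principal cell, PC). These genes define the gates, so their levels in their own gate are no finding, also where they are members of a gene list. In all, 6747 barcodes passed at least 1 gate, of 25303 in both Tfeb fl/fl libraries and 48085 in the whole series.

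These segments carry out the last, hormone-regulated steps of urine formation. The thick ascending limb reabsorbs sodium chloride through the cotransporter NKCC2 without water and secretes uromodulin. The distal convoluted tubule takes up sodium chloride through the thiazide-sensitive cotransporter and sets magnesium balance, the connecting tubule reabsorbs calcium under vitamin D and parathyroid hormone, and principal cells take up sodium through ENaC and water through aquaporins, under aldosterone and vasopressin.

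The main pair of libraries came from young (6 weeks) and aged (24 months) Tfeb fl/fl mice, whose Tfeb gene is flanked by loxP sites and intact because no Cre is present. A second pair came from Tfeb fl/fl KAP mice of the same ages, which also carry KAP-Cre, an androgen-inducible transgene that deletes Tfeb in proximal tubule cells of the S3 segment. It shares no library with the main pair and is set beside it as the KAP pair. Cortex of 2 to 3 mice was pooled before digestion, and each of the 4 conditions is 1 library, so that there is no replicate, no test across mice and no error between mice. The young mice were 6 weeks old and may still have been growing, so that maturation and ageing cannot be told apart.

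The 4 libraries held 125729484 to 194747936 UMIs in 8358 to 16945 barcodes. Levels are in CPM, the counts of a gene per 1000000 counts, summed over the barcodes of a gate and library, and a log2 ratio is that of aged to young CPM. Where 2 log2 ratios stand together, the first is that of the Tfeb fl/fl pair and the second that of the KAP pair, and a range in parentheses is the interval of the first. Its exact 95% interval covers counting error only, and cells were not treated as replicates. The 2 main libraries shared 34 barcodes.

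In the young library 4856 of 11016 barcodes past the depth and mitochondrial filters fell into a gate (44.1%), and in the aged library 1891 of 5991 did (31.6%). The TAL gate held 2613 young and 780 aged barcodes (23.7% and 13%), the DCT gate 1333 and 907 (12.1% and 15.1%), the CNT gate 1516 and 647 (13.8% and 10.8%) and the PC gate 744 and 255 (6.75% and 4.26%). The DCT share was thus the only share of the 4 that was higher in the aged library. In the KAP pair the shares went from 20.3% to 14.4% for TAL, 10.2% to 16.1% for DCT, 10.4% to 13% for CNT and 6.78% to 7.20% for PC, so that the CNT and PC shares went the other way there. Digestion and pooling can set such shares, and their part in them was not tested.

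Markers that the gates did not use mostly followed their names. In the young library Cldn16, a claudin of the paracellular magnesium path in the thick ascending limb, stood at 87.2 CPM in the TAL gate and between 2.16 and 3.58 CPM in the other gates. Trpm6, the magnesium channel of the distal convoluted tubule, was highest in the DCT gate, at 186 CPM. The calcium channel gene Trpv5 was highest in the CNT gate, at 97.6 CPM, and the vasopressin receptor gene Avpr2 was highest in the PC gate, at 305 CPM.

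The gates overlapped. Of gated barcodes, 25.2% in the young and 34.3% in the aged library passed more than 1 gate. Among TAL barcodes, 18.7% of young and 32.2% of aged ones also passed the DCT gate, and among CNT barcodes 38.6% and 52.7% did. Among DCT barcodes the overlap was smaller in the aged library, with 36.7% and 27.7% also in the TAL gate and 43.9% and 37.6% also in the CNT gate. Intercalated cells, the acid-base cells that lie among connecting tubule and principal cells, also made up different shares. Barcodes with at least 5 counts per 10000 UMIs over the 7 intercalated cell markers made up 17.6% of young and 23.5% of aged CNT barcodes and 17.2% and 23.9% of PC barcodes. These shares went in the KAP pair from 14.2% to 17% and from 10.8% to 12.8%, and in the TAL and DCT gates they stayed at or under 2.63% in every library. In such mixed gates, fewer cells of a type and less RNA per cell cannot be told apart. Values without these barcodes are therefore given beside some statements, a choice made after the data were seen.

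RNA set free by other cells was followed with 17 genes of the proximal tubule, the most abundant cells of the cortex. Their summed level in the gates was 0.577% (TAL), 0.538% (DCT), 0.331% (CNT) and 0.350% (PC) of that in proximal cells of the young library, and 0.414%, 0.399%, 0.308% and 0.280% in the aged library. The sum, which includes Kap, was thus lower with age, while the median gene of the list went the other way, from 0.587% to 0.877% of its proximal level over the gates in the young library to 1.14% to 1.35% in the aged library. When the free RNA that these sums imply was subtracted, some calls dropped below the 2-fold limit, turned or had no ratio left. These were only Slc34a1 (TAL, DCT), Ren1 (PC), Kap (each gate), Hbb-bs (DCT, CNT), Hba-a1 and Hba-a2 (CNT). Kap had no ratio left in any gate, because the amount subtracted exceeded its level, with a lowest mean of -140.3 CPM. The share subtracted was smaller in the aged library in every gate (1.33% and 0.76% of the library-wide level in TAL). The subtraction thus cannot show free RNA that was greater with age for single genes. Kap and Acsm2 are themselves in the list that sets this share. Other calls ended there because the mean fell under the 20 CPM that a gene needed to be tested, namely Dnase1 (TAL, DCT), Acsm2 (DCT, CNT, PC), Slc4a4, Aass and Igfbp4 (DCT), Hbb-bs (TAL), and Lpl and Ppp1r1a (PC). Of the Ren1 counts in the PC gate of the aged library, 794 lay in a single barcode.

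A gene was called when its log2 ratio was at least 1 in size with an interval that left out 0, among genes with a mean of at least 20 CPM over both libraries. In the TAL gate 24 of 5523 genes were higher (0.435%) and 28 lower (0.507%) in the aged library. In the DCT gate 37 of 5328 were higher (0.694%) and 16 lower (0.3%). The CNT gate had the most, with 95 of 5839 genes higher (1.63%) and 16 lower (0.274%), and the PC gate had 84 of 6564 higher (1.28%) and 25 lower (0.381%). Between 83.7% and 93.5% of tested genes lay within 0.5 on the log2 scale.

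How many more genes were higher than lower depended on the scaling. The median log2 ratio of all tested genes was 0.00 (TAL), 0.12 (DCT), 0.18 (CNT) and 0.13 (PC), and TMM scaling moved it down by 0.06, 0.18, 0.24 and 0.18. Under TMM scaling the calls were 22 higher and 34 lower in TAL, 16 and 26 in DCT, 42 and 38 in CNT and 44 and 41 in PC. The share of calls that were higher went from 46.2% to 39.3%, from 69.8% to 38.1%, from 85.6% to 52.5% and from 77.1% to 51.8%. Ratios below are of CPM and can be read against these medians. Of all tested genes, 50.15% (TAL), 66.4% (DCT), 73.6% (CNT) and 68.05% (PC) were higher, and counts of list genes can be read against these shares. Since the minimum of 20 CPM is on the mean, a list gene can be tested through its higher library alone.

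The KAP pair gave part of these calls again. Its own counts of called genes were 15 higher (0.277%) and 25 lower (0.462%) in TAL, 21 (0.406%) and 22 (0.425%) in DCT, 25 (0.445%) and 5 (0.089%) in CNT and 37 (0.57%) and 41 (0.632%) in PC. Genes called higher in both pairs numbered 8 in TAL, 9 in DCT, 14 in CNT and 18 in PC, and genes called lower in both numbered 14, 7, 2 and 13. In TAL the 8 shared higher genes were thus 8 of 24 and 8 of 15, and in CNT the 14 were 14 of 95 and 14 of 25. Across genes, which are not independent replicates, Pearson's r between the 2 pairs was 0.66 in TAL, 0.66 in DCT, 0.68 in CNT and 0.61 in PC.

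**Figure D1:**
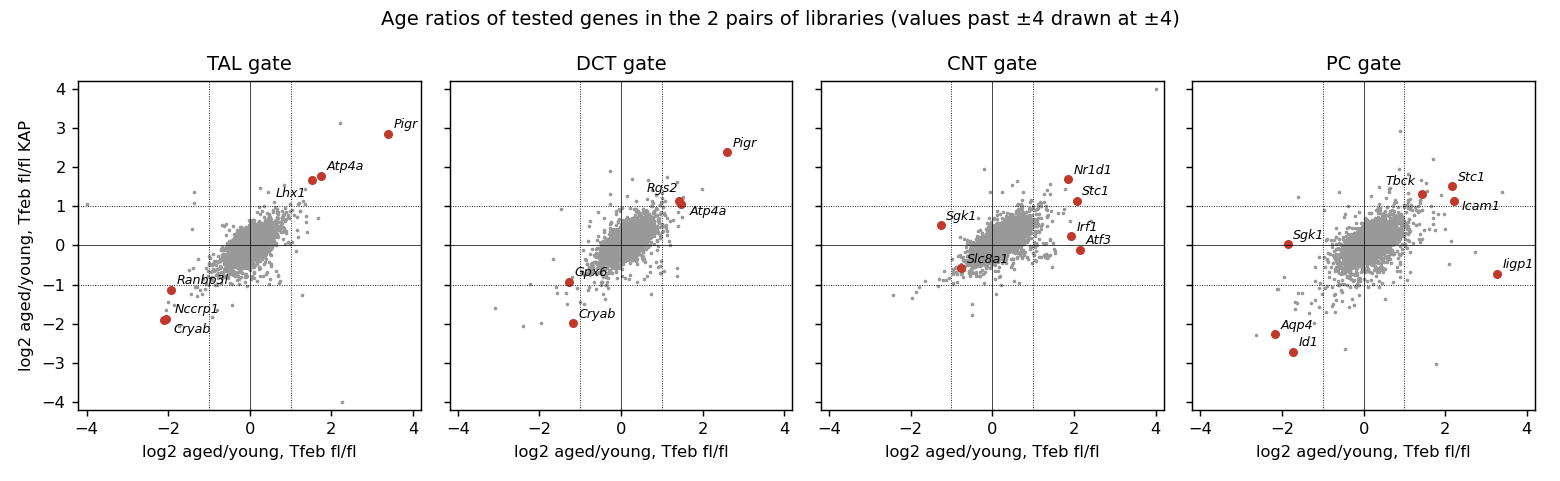
Log2 ratio of aged to young CPM of each tested gene in the Tfeb fl/fl pair (x axis) and the KAP pair (y axis), with a panel for each gate. Each grey point is a gene, dotted lines mark 2-fold and red points are genes named in the text, and values past 4 in size are drawn at 4. Pigr in TAL (3.39 and 2.85) and Aqp4 in PC (-2.17 and -2.26) lie past 2-fold on both axes, whereas Sgk1 in PC (-1.85 and 0.04) does so on the x axis only.

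Of 4832 genes tested in all 4 gates, 3 were called higher in each (0.0621%) and 3 lower in each (0.0621%). The higher ones were Gpx3, Khk and Acsm2, the lower ones Kap, Stmn1 and Cks2, and no gene was called in opposite directions in any 2 gates (0 genes). Only Gpx3 had a mean of at least 50 CPM in every gate. Without barcodes of intercalated markers Gpx3 (0.98), Khk (0.99), Cks2 (-0.87) and Stmn1 (-0.98) fell short of 2-fold in PC. Acsm2 and Kap were still called in every gate there. Among barcodes of a single gate Gpx3 was at 0.64 in PC. The gates share barcodes, so that agreement between them is not independent.

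Gpx3, a secreted glutathione peroxidase made mainly by the proximal tubule, stood at 123, 184, 195 and 135 CPM in the young TAL, DCT, CNT and PC gates and at 326, 440.5, 645 and 289 CPM in the aged ones. Its log2 ratios were 1.40 (1.33 to 1.47), 1.26 (1.20 to 1.33), 1.72 (1.67 to 1.77) and 1.10 (1.0 to 1.20), against 0.34, 0.65, 0.83 and 0.13 in the KAP pair. Every gate was higher in both pairs, but none passed 2-fold in the KAP pair. In proximal cells Gpx3 was at 8757 (young) and 8152 CPM (aged), so that the TAL gate held 1.41% and 4.00% of that level, above the 0.877% and 1.35% of the median proximal gene there. It lay within the range of the list, whose highest gene, Ttc36, was at 5.51% and 4.33%. After the subtraction above, which took a smaller share from the aged library, the ratio of Gpx3 in TAL was 2.08.

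Khk, which encodes the fructose-phosphorylating ketohexokinase, and Acsm2, a medium-chain acyl-CoA synthetase gene, are also genes of the proximal tubule and had low levels here. Khk had between 17.8 and 23.4 CPM in the young gates and between 38.1 and 47.4 CPM in the aged ones, and its log2 ratios of 1.02 to 1.09 stood against 0.04 to 0.45 in the KAP pair. Under TMM scaling, described above, Khk lost the call in every gate, at 0.81 to 0.99, Gpx3 lost it in PC (0.92), and Acsm2 was the 1 gene still higher in all 4 gates. Acsm2 went from between 11.9 and 19.1 CPM to between 32.9 and 46.5 CPM. Its log2 ratios of 1.28 (TAL), 1.37 (DCT), 1.46 (CNT) and 1.77 (PC) had the opposite sign in the KAP pair, at -1.28, -0.79, -0.55 and -3.03. In that pair, however, the mean of Acsm2 was under 20 CPM in every gate (9.55 CPM in the lowest), so that it was tested in none. Kap, the androgen-regulated proximal gene whose promoter drives the Cre of the KAP mice, went from 109 to 2.71 CPM in TAL, 116 to 13.6 CPM in DCT, 48.4 to 9.40 CPM in CNT and 56.5 to 1.73 CPM in PC. Subtracting free RNA took away the call of Kap in each gate, but Kap is in the list that sets the amount subtracted. Its counts sat in few barcodes. Without the 1% of barcodes with most of its counts, Kap was tested in 0 gates and its lowest mean was 0.31 CPM. The source of these counts was not tested.

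Stmn1 and Cks2 belong to the cell cycle list. Stmn1 encodes stathmin, which destabilizes microtubules, and Cks2 a small subunit of cyclin-dependent kinases. Cks2 had 38.5 and 15.2 CPM (young and aged) in TAL, 35.9 and 11.9 in DCT, 47.4 and 12.1 in CNT and 45.2 and 19.9 in PC. Its log2 ratios were -1.34 (-1.58 to -1.11), -1.59 (-1.86 to -1.34), -1.97 (-2.21 to -1.74) and -1.18 (-1.48 to -0.90). The KAP pair gave -1.07, -1.07, -1.34 and -1.39, but in DCT its mean of 17.5 CPM there was under the minimum of 20 CPM, so that it was called in 3 of 4 gates of that pair. Without the 1% of barcodes with most counts of the gene, a setting added after the data were seen, Cks2 was at -1.26, -1.38, -1.71 and -0.93, short of 2-fold in PC.

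Stmn1 had log2 ratios of -2.01, -1.97, -2.44 and -1.61 in TAL, DCT, CNT and PC, and of -1.44, -1.98, -1.28 and -1.22 in the KAP pair. In the KAP pair it reached 20 CPM in PC only, and was thus called in 1 gate. Its ratios rested more on a few barcodes, since leaving out the top 1% gave -1.39, -1.12, -0.76 and -0.35. Of the 25 cell cycle genes, 9 were tested in each gate, and their median log2 ratio was -0.43 in TAL (7 of 9 lower), -0.35 in DCT (8 of 9 lower), -0.19 in CNT (5 of 9 lower) and -0.32 in PC (6 of 9 lower). Without the top 1% of barcodes of each gene the medians were -0.34, -0.07, 0.10 and -0.23, so that CNT turned. Stmn1 and Cks2 were the only 2 past 2-fold in every gate. Neither was called in every gate once the barcodes with the highest doublet scores (Scrublet) were left out, where Cks2 was at -0.97 in PC and the mean of Stmn1 fell to 18.1 CPM in its lowest gate, nor with the mean of CPM over cells, where PC had -0.83 for Cks2 and -0.91 for Stmn1. Tubb5, a beta-tubulin gene, followed with -0.61, -0.62, -0.41 and -0.56, and H2afz, a histone variant gene, had -0.43 in TAL and -0.36 in PC. In the KAP pair the list medians were -0.06, -0.08, -0.05 and -0.29 over 7, 7, 8 and 9 tested genes, without Stmn1 in TAL, DCT and CNT and without Cks2 in DCT.

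CCAAT boxes are found in many cell cycle promoters, and the promoter of Cks2 is shown because its ratio was negative in every gate of both pairs. The 250 bases before its start (RefSeq, GRCm38.p6, chr13:51644982-51645231, plus strand) hold 2 CCAAT boxes, given in capitals, the nearer in reverse (ATTGG).

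Cks2: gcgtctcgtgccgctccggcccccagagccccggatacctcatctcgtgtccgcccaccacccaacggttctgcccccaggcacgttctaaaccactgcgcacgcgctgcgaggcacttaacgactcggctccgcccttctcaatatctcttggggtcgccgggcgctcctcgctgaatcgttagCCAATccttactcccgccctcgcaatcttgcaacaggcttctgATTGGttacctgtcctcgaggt

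CCAAT occurs on either strand in 33.8% of 32536 promoters of this length, and in 19 of the 22 cell cycle genes with a promoter in the table. The sequence TTTGAA, the cell cycle homology region, occurs in 15.8% of all and in 8 of the 22. These matches are descriptions of letters and not of binding.

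**Figure D2:**
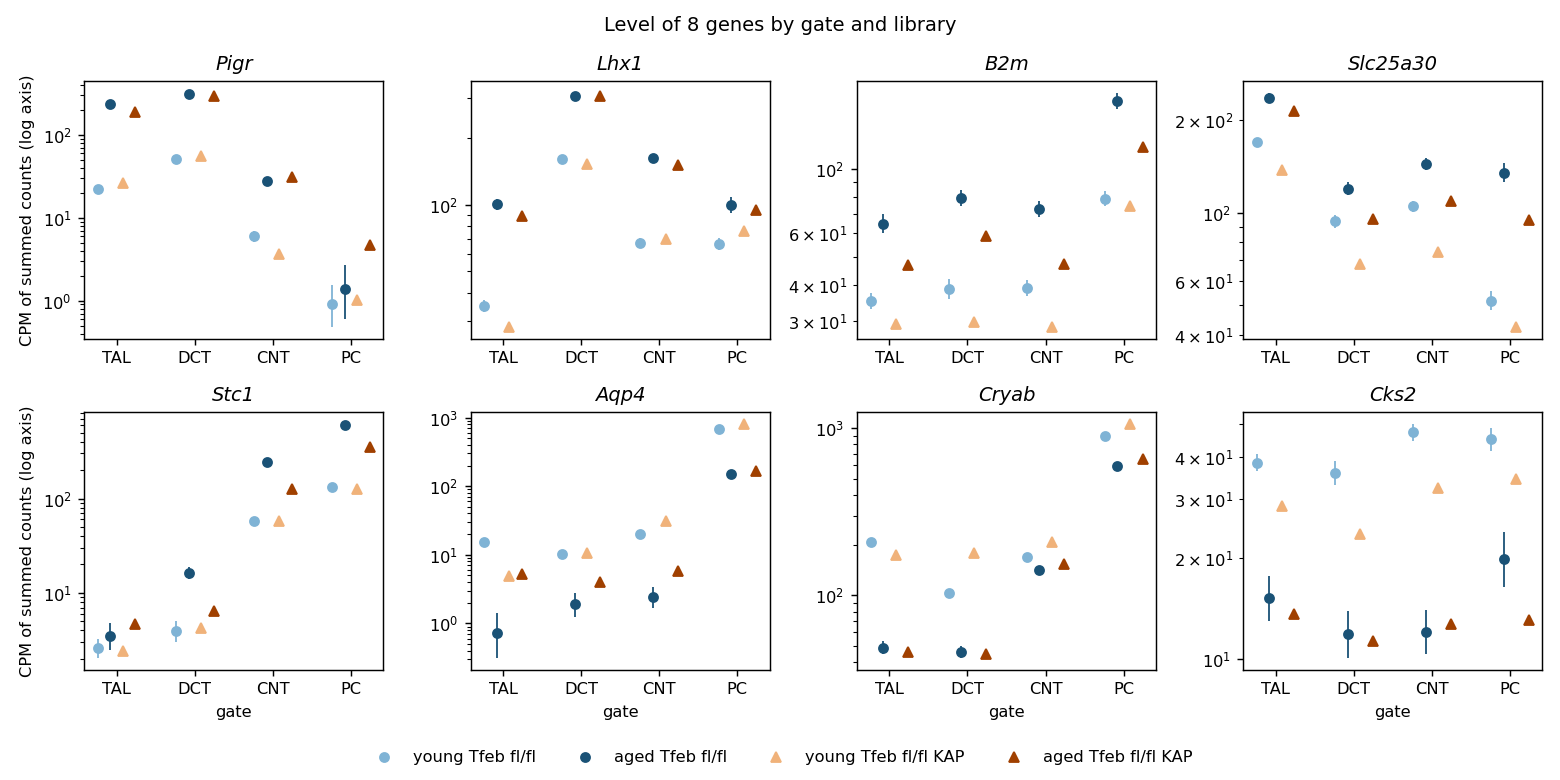
Level of 8 genes, as CPM of summed counts on a log axis, in each gate and library. Circles are Tfeb fl/fl and triangles Tfeb fl/fl KAP libraries, dark symbols are aged, and vertical lines are exact 95% counting intervals, drawn for the Tfeb fl/fl libraries only. Cks2 sits between 11.9 and 19.9 CPM in the aged and between 35.9 and 47.4 CPM in the young Tfeb fl/fl gates.

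At a lower limit of 1.5-fold, chosen after the data were seen, 27 genes (0.559%) were higher and 9 (0.186%) lower in all 4 gates. Of 4623 genes tested in both pairs, 3 were past 1.5-fold higher in each gate of each pair (0.0649%) and 0 were lower. The higher ones were B2m, Flvcr1 and the gene model AC149090.1. Cks2 and Stmn1 had ratios past this limit in each gate of each pair but are not among the 4623 genes, since they fell under 20 CPM in gates of the KAP pair.

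B2m encodes beta-2 microglobulin, the light chain of MHC class I. In the young library it had 35.2, 38.9, 39 and 78.8 CPM in TAL, DCT, CNT and PC, and in the aged library 64.7, 79.3, 72.6 and 171 CPM. The log2 ratios were 0.88 (0.74 to 1.02), 1.03 (0.88 to 1.18), 0.90 (0.77 to 1.03) and 1.11 (0.99 to 1.24), with 0.67, 0.97, 0.71 and 0.67 in the KAP pair. All 4 gates were higher in both pairs, and among barcodes of a single gate the ratios were 0.46 to 1.12. Flvcr1, an exporter of heme and a transporter of choline, had 0.63, 0.77, 0.72 and 1.04 with 0.66, 0.82, 0.67 and 0.86 in the KAP pair, although among CNT barcodes of a single gate it was at 0.08. AC149090.1, a gene model without a name, had 0.99, 1.37, 1.25 and 1.13 with 1.07, 1.61, 1.32 and 1.19 and was the only gene called higher in all 4 gates of the KAP pair (1 of 4683, 0.0214%).

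Atp6v0a4, a subunit of the proton pump, was higher in every gate of both pairs. It stood at 162 and 296 CPM (young and aged) in TAL, 195 and 369.7 in DCT, 284 and 447 in CNT and 233 and 342 in PC. The log2 ratios lay between 0.55 and 0.92, and between 0.39 and 0.64 in the KAP pair. In CNT and PC the share of barcodes with intercalated markers was also higher in the aged library of both pairs. Values of Atp6v0a4 without those barcodes are not given here.

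In the TAL gate the highest ratio among genes of at least 50 CPM belonged to Pigr, the receptor that carries polymeric IgA across epithelia. It was counted at 22.5 (young) and 236 CPM (aged), and at 26.4 and 190.0 CPM in the KAP pair, a log2 ratio of 3.39 (3.27 to 3.52) against 2.85. After each cell was thinned to 2000 UMIs, 4.31% of young and 26.8% of aged TAL cells held a Pigr UMI, and unthinned 12.9% and 49.9% did. In thinned PC cells the shares were 0.135% and 0.392%, and in thinned proximal cells 3.87% and 14.3%. In the DCT gate Pigr went from 51.7 to 312 CPM (2.59, 2.48 to 2.70, and 2.38 in the KAP pair). It was at 5.97 and 27.8 CPM in CNT and at 0.906 and 1.38 CPM in PC, so that the level was lower from each gate to the next, from DCT to PC, in both aged libraries. Igkc, the constant region of immunoglobulin kappa and a plasma cell transcript, was near the same level in every aged gate (12.2 to 15.2 CPM) and in aged proximal cells (14.5 CPM), with 0 to 1.94 CPM in young gates.

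Promoter letters of Pigr are shown because its ratio was the largest of the TAL and DCT gates among such genes. The 250 bases before its start (RefSeq, GRCm38.p6, chr1:130826434-130826683, plus strand) hold 1 E-box (CACGTG), in capitals, 71 to 66 bases before the start.

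Pigr: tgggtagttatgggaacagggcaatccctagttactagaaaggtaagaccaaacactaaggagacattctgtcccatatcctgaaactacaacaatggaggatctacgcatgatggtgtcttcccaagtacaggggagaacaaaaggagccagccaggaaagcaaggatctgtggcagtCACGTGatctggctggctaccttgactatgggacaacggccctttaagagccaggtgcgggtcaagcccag

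CACGTG occurs in 6.04% of all promoters.

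Other genes higher in the TAL gate were Atp4a, the catalytic subunit of the gastric proton pump that the kidney also uses, and the homeobox genes Lhx1 and Emx1. Atp4a was counted at 32.8 (young) and 109.9 CPM (aged), and at 33.9 and 116 CPM in the KAP pair (1.74 and 1.78), and in DCT at 58.6 and 162 CPM (1.47, 1.06 in the KAP pair). Lhx1, a transcription factor of nephron development, stood at 35 (young) and 100.2 CPM (aged), and at 28.1 and 89 CPM in the KAP pair. Its log2 ratios of 1.52 (TAL), 0.95 (DCT), 1.27 (CNT) and 0.58 (PC) went with 1.66, 1.02, 1.10 and 0.31 in the KAP pair. Emx1 was at 31.7 (young) and 80.2 CPM (aged), and at 33.5 and 69.8 CPM in the KAP pair (1.34 and 1.06). Apoe, the apolipoprotein E gene, had 90.5 CPM in the young and 201 CPM in the aged library (1.15), with 0.40 in the KAP pair. Of 23 tested DCT transport genes 16 were higher and 7 lower in the TAL gate, with a median of 0.24 and of 0.31 in the KAP pair. The 2 past 2-fold were Klhl3 at 1.03 and Trpm6 at 1.16, with 0 past it in the KAP pair. The share of TAL barcodes that also passed the DCT gate was higher in the aged library. Among barcodes of the TAL gate alone the list median was 0.24. The values of Klhl3 and Trpm6 in that setting are not given here.

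Apart from Kap (-5.33) and the genes used by the gates, the lowest ratios in TAL among such genes were those of Cryab, Nccrp1 and Ranbp3l. Cryab, the small heat shock protein alpha-B crystallin, was at 208 (young) and 48.7 CPM (aged), and at 173 and 46.1 CPM in the KAP pair, and its log2 ratio was -2.10 (-2.23 to -1.97) against -1.91. Nccrp1 was at 150.0 (young) and 36.2 CPM (aged), and at 127 and 34.7 CPM in the KAP pair (-2.05 and -1.87), and Ranbp3l, which exports Smad proteins from the nucleus, was at 198 (young) and 52.3 CPM (aged), and at 118 and 54.1 CPM in the KAP pair (-1.92 and -1.13). Each of these 3 genes was lower in both pairs. Enpp2, the lysophosphatidic acid producing enzyme autotaxin, followed at -1.44 and -1.23, and Fam43a at -1.17 and -1.25.

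Claudins of the thick ascending limb moved apart. Cldn10, whose product makes the sodium-selective paracellular path, stood at 1488 (young) and 736 CPM (aged), and at 1270 and 735 CPM in the KAP pair (-1.01, -1.05 to -0.98, against -0.79), and at -0.79 among barcodes of the TAL gate alone. Cldn16 was at 87.2 (young) and 112 CPM (aged), and at 89.8 and 128 CPM in the KAP pair (0.36 and 0.51). Its partner Cldn19 had -0.80 and -0.61. Ptger3, a prostaglandin E receptor gene, had -0.72 and -0.39, and Casr, the calcium-sensing receptor, 0.61 and 0.41. Epidermal growth factor (Egf) was at 5336 (young) and 6608 CPM (aged), and at 4869 and 7213 CPM in the KAP pair (0.31 and 0.57). Over the 24 tested of 26 TAL transport genes the median was 0.05, close to the 0.00 of all genes, with 13 higher, 11 lower and 1 past 2-fold, namely Cldn10.

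In the DCT gate Rgs2, Upp1 and Mt2 were called higher besides Pigr, Atp4a and Gpx3. Rgs2 is a brake on G protein signalling, Upp1 the uridine phosphorylase gene and Mt2 a metallothionein gene. Rgs2 stood at 42.8 (young) and 115 CPM (aged), and at 46.2 and 101 CPM in the KAP pair (1.42, 1.29 to 1.55, against 1.13). Upp1 was at 63.8 (young) and 169 CPM (aged), and at 86.2 and 121 CPM in the KAP pair (1.41 and 0.49). Mt2 was at 177 (young) and 405 CPM (aged), and at 231 and 353 CPM in the KAP pair (1.20 and 0.61). All 3 genes were higher in both pairs, but only Rgs2 passed 2-fold in both. Mt2 was also higher in TAL (0.89 and 0.84), CNT (0.82 and 0.30) and PC (1.71 and 0.85), with its near copy Mt1 at 0.52, 0.48, 0.27 and 1.12 in TAL, DCT, CNT and PC.

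Among genes lower in the DCT gate, Gpx6, a glutathione peroxidase gene, was at 163 (young) and 67.9 CPM (aged), and at 138 and 72.3 CPM in the KAP pair (-1.27, -1.38 to -1.16, against -0.93). Cryab stood at 103 (young) and 45.8 CPM (aged), and at 178 and 44.9 CPM in the KAP pair (-1.17 and -1.99). Both were lower in the aged library of each pair. Pvalb, the calcium buffer parvalbumin that marks the early distal convoluted tubule, was at 2984 (young) and 1594 CPM (aged), and at 2593 and 926 CPM in the KAP pair. Its log2 ratio of -0.90 (-0.93 to -0.88) fell short of 2-fold, and that of the KAP pair was -1.49. Cldn10 was called lower in the DCT gate (-1.58), but it was higher among barcodes of the DCT gate alone (0.59), and 36.7% of young and 27.7% of aged DCT barcodes also passed the TAL gate.

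Klhl3, the ubiquitin ligase adaptor that removes WNK kinases and so bears on the thiazide-sensitive cotransporter, stood at 333 (young) and 572 CPM (aged), and at 347 and 525 CPM in the KAP pair (0.78, 0.73 to 0.83, against 0.60). Wnk4 had 0.22 and 0.22, and the magnesium channel gene Trpm6 0.29 and 0.14. Under TMM scaling, Klhl3 was at 0.60, Wnk4 at 0.04 and Trpm6 at 0.11. Of all tested genes 66.4% were higher in the DCT gate. Of the 26 DCT transport genes, 23 were tested there, 17 higher and 6 lower and 0 past 2-fold. Their median was 0.22 beside 0.12 for all genes, 0.04 under TMM scaling, and 0.09 in the KAP pair.

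The CNT gate had the largest number of higher genes, and that number was smaller without barcodes that carried intercalated markers. In the remaining barcodes 39 of its 95 higher genes were still at least 2-fold higher and 25 of them still called, and their median log2 ratio went from 1.19 to 0.89. In the PC gate 59 of 84 stayed at least 2-fold higher, 51 of them called, and the median was 1.22 and 1.23. Of the 25 genes lower in PC, 16 stayed at least 2-fold lower, 15 of them called, and the median went from -1.595 to -1.36. Of the 16 genes lower in CNT, 14 stayed so, 13 of them called, and the median went from -1.34 to -1.53. The 7 intercalated markers themselves had a median of 0.96 in CNT, with 7 of 7 higher, and 0.75 in PC, with 6 of 7 higher. Their summed level was 914 and 1776 CPM in CNT and 915 and 1515 CPM in PC, with none of the 7 at 0. Their part in genes not named here was not tested.

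**Figure D3:**
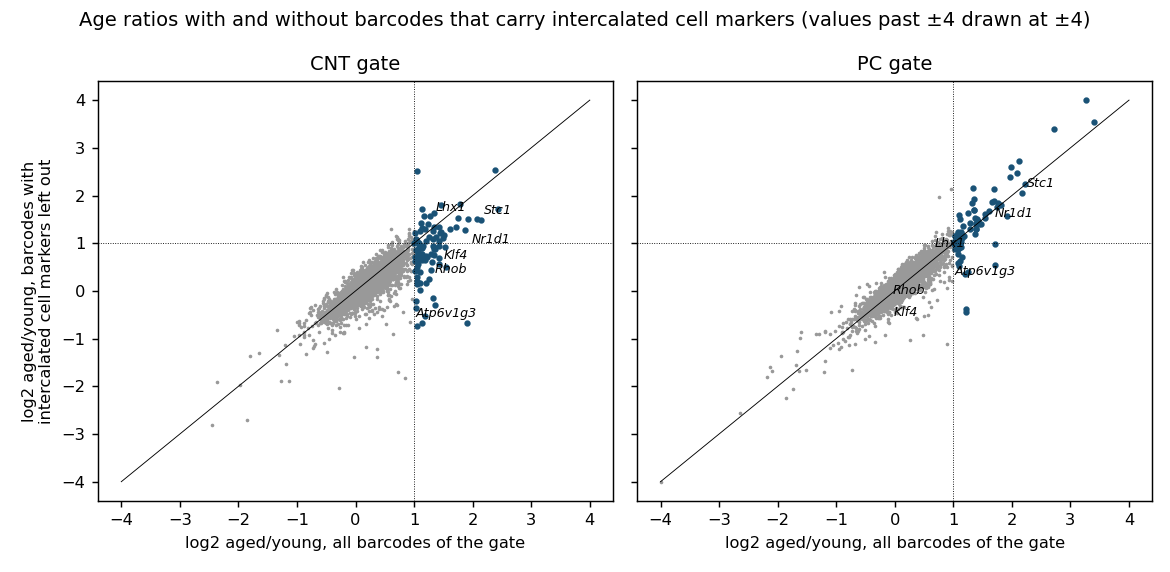
Log2 ratio of aged to young CPM of each tested gene in the CNT and PC gates, with all barcodes (x axis) and without barcodes that carried intercalated cell markers (y axis). Blue points are genes at least 2-fold higher with all barcodes, dotted lines mark 2-fold and the diagonal marks equal values. Klf4 in CNT drops from 1.42 to 0.56, whereas Stc1 in PC goes from 2.17 to 2.06.

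Stc1, the secreted hormone stanniocalcin 1, was among the genes with the highest ratios in CNT and PC in both pairs. In CNT it was counted at 58.2 (young) and 244 CPM (aged), and at 57.4 and 127 CPM in the KAP pair, a log2 ratio of 2.07 (1.98 to 2.16) against 1.15. In PC it was at 133 (young) and 598 CPM (aged), and at 125 and 355 CPM in the KAP pair, a log2 ratio of 2.17 (2.09 to 2.25) against 1.51. Without barcodes of intercalated markers the ratios were 1.5 and 2.06. In thinned cells 19.2% of young and 49.8% of aged PC barcodes held a Stc1 UMI, against 0.423% and 0.515% in TAL, where median depth was 10910 and 14120 UMIs beside 14360 and 15700 in PC. Unthinned shares in PC were 60.6% and 83.5%.

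Scg5, a secretory pathway chaperone gene, and Id3, an inhibitor of helix-loop-helix factors, were past 2-fold in CNT in both pairs. Scg5 stood at 83.9 (young) and 224 CPM (aged), and at 62.4 and 154 CPM in the KAP pair (1.42 and 1.31) and in PC at 65.5 and 190.5 CPM (1.54, 1.6 in the KAP pair). Id3 was at 89.3 (young) and 239 CPM (aged), and at 76.4 and 228 CPM in the KAP pair (1.42 and 1.57), while in PC its ratio was 0.07. The difference between gates for Id3 was read after its values were seen.

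Stress-response genes were higher in the aged CNT gate of the Tfeb fl/fl pair, and close to level in the KAP pair. Atf3, a stress-induced transcription factor, stood at 185 (young) and 820.1 CPM (aged), and at 310.0 and 288 CPM in the KAP pair (2.15, 2.10 to 2.20, against -0.11). Irf1, an interferon-induced transcription factor, was at 36 (young) and 137 CPM (aged), and at 43.2 and 50.9 CPM in the KAP pair (1.93 and 0.24), and Gadd45b, a growth arrest gene, was at 102 (young) and 293 CPM (aged), and at 150.0 and 130.1 CPM in the KAP pair (1.53 and -0.20). The young KAP library was higher than the young Tfeb fl/fl library for each of these 3 genes. Of the 24 immediate early genes, which cells switch on within minutes of a stimulus, tissue digestion included, 23 were tested in CNT, 23 were higher and 16 past 2-fold. Their median of 1.14 stood beside 0.18 for all genes, was 0.90 under TMM scaling and 0.65 without barcodes of intercalated markers, and was -0.01 in the KAP pair. In TAL, DCT and PC the medians were 0.10, 0.56 and 0.38, with -0.54, 0.01 and -0.41 in the KAP pair. Leaving out the barcode with the most list UMIs in each library left a median of 1.14 and 16 genes past 2-fold. The part of digestion in these values was not tested.

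Genes lower in CNT included Sgk1, the kinase that aldosterone and glucocorticoids induce to hold ENaC at the membrane. Its ratio was not the lowest there, as Kap had -2.36 and Cks2 -1.97. In CNT Sgk1 stood at 223 (young) and 92.5 CPM (aged), and at 157 and 224 CPM in the KAP pair (-1.27, -1.35 to -1.18, against 0.52). In PC it was at 484 (young) and 134 CPM (aged), and at 418 and 428 CPM in the KAP pair (-1.85, -1.96 to -1.75, against 0.04). The 2 pairs thus differed, with a low aged Tfeb fl/fl library and an aged KAP library at or above its young partner. Gchfr, the feedback regulator of GTP cyclohydrolase, had -1.19 and -0.66, and the tubulin gene Tubb2b -1.05 and -0.84.

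Kl encodes klotho, the co-receptor for the phosphate-regulating hormone FGF23, a lack of which shortens life in mice. In the CNT gate it stood at 2710 (young) and 1384 CPM (aged), and at 2511 and 1504 CPM in the KAP pair (-0.97, -0.99 to -0.95, against -0.74), and in DCT at 2125 (young) and 1201 CPM (aged), and at 1717 and 1234 CPM in the KAP pair (-0.82 and -0.48). The log2 ratio of Kl was -0.35 in TAL and -0.61 in PC, with -0.07 and -0.47 in the KAP pair. All 8 values of Kl were thus negative and none reached 2-fold. Among barcodes of a single gate Kl had -0.03, -0.66, -1.41 and 0.32 in TAL, DCT, CNT and PC, so that PC turned.

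Genes of calcium reabsorption in the CNT gate had mostly negative ratios. Slc8a1, the basolateral sodium-calcium exchanger, stood at 3812 (young) and 2242 CPM (aged), and at 3928 and 2624 CPM in the KAP pair (-0.77, -0.78 to -0.75, against -0.58). Trpv5, the apical calcium channel, was at 97.6 (young) and 80.8 CPM (aged), and at 97.3 and 73.5 CPM in the KAP pair (-0.27 and -0.41). The calcium pump gene Atp2b4 had -0.49 and -0.43, whereas Atp2b1 had 0.14 and -0.08 and the vitamin D receptor gene Vdr 0.01 and -0.22. Of the 13 calcium genes 10 were tested in CNT, with 7 lower, a median of -0.24 and 0 past 2-fold, and 10 of 10 were lower in the KAP pair, with a median of -0.42. The list includes Kl and the gate's own genes Calb1 and S100g. Without barcodes of intercalated markers its median was -0.07, and among barcodes of the CNT gate alone -0.51, and under TMM scaling -0.48. Spp1, which encodes osteopontin, was lower in CNT (-0.88 and -0.67) and PC (-1.19 and -0.56).

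In the PC gate the water channel gene Aqp4, which the gate did not use, had the lowest ratio among genes of at least 50 CPM. Aqp4, the basolateral aquaporin of principal cells, stood at 682 (young) and 151 CPM (aged), and at 809.5 and 168 CPM in the KAP pair. Its log2 ratio was -2.17 (-2.28 to -2.08), with -2.26 in the KAP pair and -1.80 without barcodes of intercalated markers. In thinned cells 43.2% of young and 19.2% of aged PC barcodes held an Aqp4 UMI, beside 0.615% and 0.129% in the TAL gate, and unthinned shares in PC were 68.5% and 44.3%. Another basolateral water channel gene, Aqp3, had 3044 CPM in the young and 2676 CPM in the aged library (-0.19) and 2222 and 2258 CPM in the KAP pair (0.02). The vasopressin receptor gene Avpr2 was at -0.05 (-0.13 to 0.03), and at -0.32 in the KAP pair.

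Among the genes lower in PC were Elf5, Id1 and Id4, named for their low ratios. Elf5, an Ets factor of principal cells, stood at 85.3 (young) and 35 CPM (aged), and at 99 and 35.7 CPM in the KAP pair (-1.29, -1.51 to -1.07, against -1.47). Id1, an inhibitor of helix-loop-helix factors, was at 139 (young) and 41.9 CPM (aged), and at 147 and 22.5 CPM in the KAP pair (-1.73 and -2.71), and its relative Id4 at -1.21 and -1.98. All 3 were past 2-fold lower in both pairs, while other transcription regulators described here, Nr3c2, Hoxd10 and Hoxa7, had positive ratios in PC. Itm2a, a membrane protein gene, had -1.69 and -1.44, Ranbp3l -1.67 and -1.63, and Npnt, the matrix protein nephronectin, -1.20 and -0.90. Values of these lower genes without barcodes of intercalated markers are not given here.

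The ENaC subunits did not share this direction. Scnn1a, Scnn1b and Scnn1g had log2 ratios of 0.19, 0.34 and 0.28 in PC, with 0.12, 0.36 and 0.42 in the KAP pair. Under TMM scaling the 3 values of the main pair were 0.01, 0.16 and 0.10. Hsd11b2, the enzyme that keeps glucocorticoids off the mineralocorticoid receptor, was at 0.11 and 0.01, and that receptor's gene Nr3c2 at 0.31 and 0.37. Of 24 genes of collecting duct sodium and water transport, 23 were tested in PC, with 13 higher, 10 lower and a median of 0.11, and the 2 past 2-fold were Aqp4 and Sgk1. Of all tested genes 68.05% were higher in PC, with a median of 0.13.

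Genes higher in PC included Icam1, the adhesion molecule that binds leukocyte integrins, Tbck, a regulator of vesicle traffic, and Rcn1, a calcium-binding protein of the endoplasmic reticulum. Icam1 stood at 25.4 (young) and 119 CPM (aged), and at 30.9 and 68.1 CPM in the KAP pair (2.23, 2.04 to 2.41, against 1.14). Tbck was at 277 (young) and 746 CPM (aged), and at 279 and 695 CPM in the KAP pair (1.43 and 1.32), and it was 0.01 in TAL and 0.43 in DCT. Rcn1 had 1.66 and 1.0. The first 2 genes were past 2-fold in both pairs, and Rcn1 was just short of it in the KAP pair.

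Interferon-response genes had the highest median of the lists in the PC gate. Of 26 genes 17 were tested, 16 were higher and 12 past 2-fold, and the median was 1.36 beside 0.13 for all genes. The minimum of 20 CPM was set on the mean of both libraries. Genes low in the young library could thus enter through their aged level, which can raise these counts and this median. Summed over all genes of the list, without that minimum, the level went from 712 to 1626 CPM, and from 752 to 895 CPM in the KAP pair. Ifi27 stood at 23 (young) and 86.3 CPM (aged), and at 23.6 and 57.3 CPM in the KAP pair (1.91 and 1.28), and Irf1 at 142 (young) and 386 CPM (aged), and at 183 and 205 CPM in the KAP pair (1.44 and 0.17). Iigp1, an immunity-related GTPase gene, was at 7.60 (young) and 73.2 CPM (aged), and at 9.31 and 5.62 CPM in the KAP pair (3.27 and -0.73). In the KAP pair 9 genes of the list were tested, 8 higher, with a median of 0.27, and only Ifi27 of the 3 just named passed 2-fold.

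Part of this signal sat in a few barcodes. The barcode with the most list UMIs held 18.0% of them in the aged library (1694 of 9396) and 6.25% in the young library (638 of 10215). Without it, in each library, the median was 1.25 with 12 genes past 2-fold and 16 above 0. Isg15, a ubiquitin-like modifier, went from 2.73 to 1.38, Ifit3 from 2.08 to 1.51 and Iigp1 from 3.27 to 3.23 when it was left out. Without barcodes of intercalated markers the list median was 1.59. Few of these genes reached 20 CPM in TAL and DCT (4 each) or CNT (5), where medians were 0.26, 0.54 and 0.95.

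MHC class I genes went with B2m. Of 23 antigen presentation genes 10 were tested in PC, 10 were higher, and 2 passed 2-fold, B2m and the immunoproteasome subunit gene Psmb8 (1.96 and 0.80 in the KAP pair). H2-K1 stood at 385 (young) and 669.6 CPM (aged), and at 427 and 577 CPM in the KAP pair (0.80 and 0.43) and H2-D1 at 208 (young) and 363 CPM (aged), and at 236 and 343 CPM in the KAP pair (0.81 and 0.54). Both are close relatives among the class I genes, so that reads may be split. The list median in PC was 0.69, and 0.25 in the KAP pair (9 tested), and without the top 1% of barcodes of each gene it was 0.31. Myeloid markers summed to 14.6 and 8.82 CPM over 8 genes in young and aged PC barcodes, with 1 of 8 at 0 in the aged library, and lymphoid markers to 5.93 and 21.4 CPM over 9 genes, 3 and 4 of them at 0 and Igkc included. Their part in the interferon list was not tested.

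Promoters of B2m and Irf1 are shown as genes of the interferon response with higher levels in every gate of the aged Tfeb fl/fl library. The interferon-stimulated response element (ISRE, which reads GAAA, any 2 bases and again GAAA) and the gamma-activated site (GAS, TTCNNNGAA) were searched on both strands with the CCAAT box and TTTGAA, and matches stand in capitals. In the 250 bases before the start of B2m (RefSeq, GRCm38.p6, chr2:122147437-122147686, plus strand) an ISRE lies 139 to 130 bases before the start, and in those of Irf1 (chr11:53769764-53770013, plus strand) a GAS lies 90 to 82 bases before it.

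B2m: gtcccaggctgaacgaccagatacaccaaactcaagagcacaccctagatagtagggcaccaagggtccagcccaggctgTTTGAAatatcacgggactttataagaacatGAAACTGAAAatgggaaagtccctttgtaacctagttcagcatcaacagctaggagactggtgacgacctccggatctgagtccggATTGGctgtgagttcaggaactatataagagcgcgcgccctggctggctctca

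Irf1: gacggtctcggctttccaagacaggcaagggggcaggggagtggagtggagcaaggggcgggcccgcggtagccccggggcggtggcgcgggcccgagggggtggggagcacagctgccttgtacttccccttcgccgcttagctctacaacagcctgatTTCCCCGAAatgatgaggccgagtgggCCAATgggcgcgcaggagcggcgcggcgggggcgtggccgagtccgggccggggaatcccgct

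An ISRE is found in 2.98% and a GAS in 7.04% of all promoters, and an ISRE in 10 of the 21 interferon-response genes and 3 of the 18 antigen presentation genes with a promoter in the table.

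Of the 4832 genes, 16 were called in 1 gate only (0.331%), that is past 2-fold there and within 0.5 on the log2 scale in the other 3. The TAL gate had 4, all lower (0.0828%), the CNT gate 5, all higher (0.103%), the PC gate 5 higher (0.103%) and 2 lower (0.0414%), and the DCT gate had 0. Differences between gates below are of log2 ratios, with intervals for counting error.

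Hist1h1c, a linker histone gene, was past 2-fold lower in the TAL gate only. It had negative ratios in the other gates too, at -0.22 in DCT, -0.28 in CNT and -0.48 in PC. In TAL it stood at 120.3 (young) and 54.7 CPM (aged), and at 105 and 58.2 CPM in the KAP pair (-1.14 and -0.85). Its TAL ratio minus that in DCT was -0.92 (-1.12 to -0.71), minus that in CNT -0.86 (-1.03 to -0.68) and minus that in PC -0.66 (-0.82 to -0.49). The other 3 genes of TAL were Aqp2, Aqp3 and S100g, markers of other gates at low levels. Aqp2 went from 79.4 to 29.8 CPM (-1.42) but was at 1.51 among barcodes of the TAL gate alone. Aqp3 was at -1.37 and 0.21 in these settings, and S100g at -1.27 and -1.80.

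The 5 genes of the CNT gate were the growth and stress regulators Klf4, Klf2, Rhob, Zfp36 and Csrnp1. Klf4, a Kruppel-like transcription factor, stood at 57.6 (young) and 154 CPM (aged), and at 53.9 and 59.1 CPM in the KAP pair (1.42 and 0.14), and its ratio exceeded that in PC by 1.53 (1.40 to 1.67). Klf2 was at 1.42, the small GTPase gene Rhob at 1.26, Zfp36, whose product speeds the decay of mRNAs, at 1.02 and Csrnp1 at 1.06. None was past 2-fold in the KAP pair, where they had 0.17, -0.23, 0.01 and -0.39. Without barcodes of intercalated markers none was past 2-fold in the main pair either, at 0.56, 0.69, 0.25, 0.43 and 0.57 in the order above.

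Slc25a30, a mitochondrial carrier gene, was the clearest of the PC gate. It stood at 51.7 (young) and 135 CPM (aged), and at 42.4 and 94.8 CPM in the KAP pair, with a log2 ratio of 1.38 (1.24 to 1.53) against 1.16. The ratio exceeded that in TAL by 0.91 (0.75 to 1.07), that in DCT by 1.03 (0.85 to 1.21) and that in CNT by 0.92 (0.75 to 1.09). In TAL, DCT and CNT its ratios were 0.47, 0.35 and 0.46, and 0.64, 0.49 and 0.55 in the KAP pair. In the KAP pair TAL and CNT thus lay past the limit of 0.5 set for the other gates. The homeobox genes Hoxd10 and Hoxa7 had 1.14 and 1.08 in PC, with 0.94 and 1.33 in the KAP pair, and 0.70 and 0.78 without barcodes of intercalated markers. Ifitm3, an interferon-induced membrane protein gene, was at 1.35 and 0.54 and fell short of 2-fold, at 0.91, without the barcode with the most UMIs of the interferon list, and the gene model Gm20186 at 1.13 and -0.17.

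Lower in PC only were Wfdc15b, a protease inhibitor gene, and Ppp1r1a, the inhibitor 1 of protein phosphatase 1, both abundant in other gates. Wfdc15b stood at 2944 and 3431 CPM in TAL, and in PC at 150.1 (young) and 38.9 CPM (aged), and at 58.1 and 33.1 CPM in the KAP pair (-1.95 and -0.81). Ppp1r1a was at 1837 and 1753 CPM in TAL, and in PC at 34.2 (young) and 7.79 CPM (aged), and at 8.10 and 3.75 CPM in the KAP pair (-2.13 and -1.11). Of PC barcodes, 2.55% of young and 0.784% of aged ones also passed the TAL gate. The PC values of both genes among barcodes of a single gate are not given here. Among barcodes of a single gate both genes were lower in the CNT gate too, with log2 ratios of -3.12 for Wfdc15b and -1.91 for Ppp1r1a.

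Clock genes had their highest list medians in the CNT and PC gates of the Tfeb fl/fl pair. Without barcodes of intercalated markers, however, the median was 0.49 in CNT, under the 0.53 of DCT, and 0.92 in PC. Nr1d1 and Nr1d2 encode the repressors REV-ERB alpha and beta, and Dbp and Tef are output factors of the clock. In CNT, Nr1d1 stood at 21.8 (young) and 79.5 CPM (aged), and at 14.7 and 47.6 CPM in the KAP pair (1.86 and 1.69). In PC, Nr1d1 stood at 44.1 (young) and 129 CPM (aged), and at 35.1 and 92.4 CPM in the KAP pair (1.55 and 1.40). Nr1d2 had 1.30, 2.39 and 1.82 in TAL, CNT and PC, with 1.13, 1.5 and 0.79 in the KAP pair. Both genes were higher in the aged library of each pair in these gates. Dbp was tested in PC, at 4.95 (young) and 52.2 CPM (aged), and at 7.45 and 19 CPM in the KAP pair (3.40 and 1.35). Tef had 1.23, 1.09 and 0.94 in TAL, CNT and PC, and 0.88, 0.00 and -0.08 in the KAP pair.

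Arntl, the activator BMAL1 that acts in antiphase to these genes, had log2 ratios of -0.70, -0.84 and -0.58 in DCT, CNT and PC, and of -0.52, -0.27 and -0.08 in the KAP pair. Clock was at 0.05, 0.42, 0.07 and -0.07 in TAL, DCT, CNT and PC. The list medians were 0.31, 0.56, 1.05 and 0.94 over 6, 5, 7 and 9 tested of 19 genes, and 0.66, 0.21, 0.03 and -0.07 in the KAP pair. No source used here states the hour at which tissue was taken, and hour and age cannot be told apart.

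Nuclear-encoded genes of oxidative phosphorylation and genes of the citrate cycle had slightly negative medians in every gate. Of 75 nuclear-encoded genes of oxidative phosphorylation, all tested, 46 were lower in TAL, 53 in DCT, 58 in CNT and 49 in PC, with medians of -0.05, -0.08, -0.13 and -0.09. The KAP pair had 48, 71, 54 and 50 lower, and 0 passed 2-fold in either pair. Of 25 tested citrate cycle genes 20, 19, 21 and 20 were lower, with medians of -0.07, -0.09, -0.19 and -0.08. The medians of all tested genes, set out above, lay above each of these values. Under TMM scaling the medians were -0.11, -0.26, -0.365 and -0.27 for oxidative phosphorylation and -0.125, -0.27, -0.43 and -0.26 for the citrate cycle. Those of all tested genes were then -0.05, -0.06, -0.06 and -0.05. The list medians are small, and their size depends on the scaling. Glycolysis genes had medians of -0.05, -0.01, -0.07 and -0.12, and fatty acid oxidation genes of 0.01, 0.12, 0.06 and 0.12.

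Mitochondrially encoded genes were mostly lower in the Tfeb fl/fl pair, in 8 of 13 tested genes in TAL, 10 of 13 in DCT, 11 of 13 in CNT and 11 of 12 in PC, beside 7 of 13, 7 of 13, 8 of 12 and 3 of 12 in the KAP pair. The list median was -0.03 in TAL, -0.15 in DCT, -0.50 in CNT and -0.70 in PC, and -0.08, -0.01, -0.09 and 0.16 in the KAP pair. Subunit genes of complex I had ratios of both signs. The log2 ratios of mt-Nd1 were -0.57, -0.79, -0.92 and -0.96, with -0.58, -0.61, -0.57 and -0.30 in the KAP pair. Those of mt-Nd4l were 1.21, 0.87, 0.72 and 0.56, with 1.07, 0.92, 0.95 and 1.22. mt-Nd4l overlaps mt-Nd4 on the same strand, so that its counts are uncertain, and the cell filter uses the mitochondrial share itself.

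Other lists differed between the pairs or between gates. Heat shock genes had positive medians in the Tfeb fl/fl pair (0.04, 0.26, 0.32 and 0.16 in TAL, DCT, CNT and PC) and negative medians in the KAP pair (-0.32, -0.29, -0.22 and -0.29), and under TMM scaling the main pair had -0.01 in TAL and -0.02 in PC. Cholesterol synthesis genes had a median of 0.31 in TAL (13 of 14 higher) and -0.29 in DCT (10 of 15 lower), against 0.00 and -0.49 in the KAP pair. The lysosome list, which holds known TFEB targets, stayed near the median of all genes, at 0.02, 0.00, 0.13 and 0.16.

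**Figure D4:**
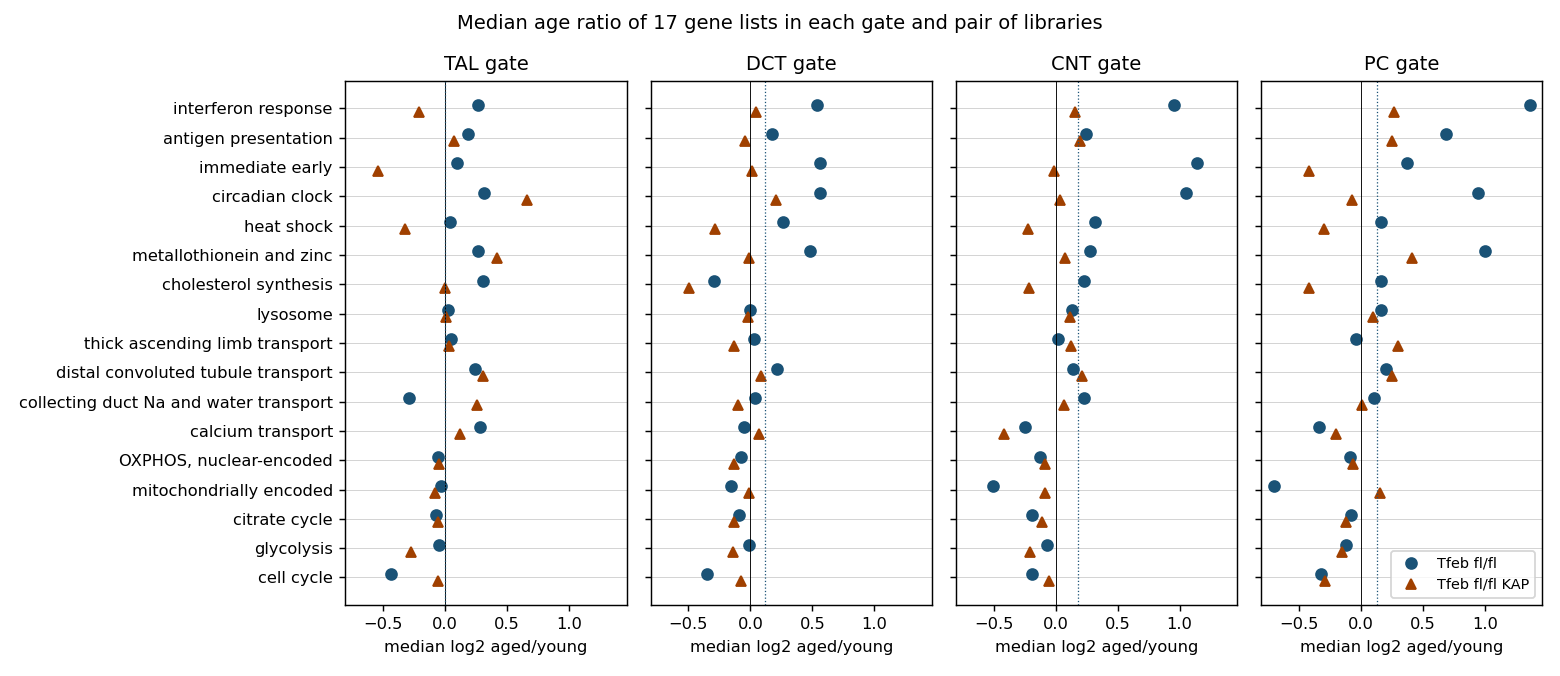
Median log2 ratio of aged to young CPM of 17 gene lists (rows) in each gate, with circles for the Tfeb fl/fl and triangles for the KAP pair, and the dotted line at the median of all tested genes of the Tfeb fl/fl pair. The interferon list in PC (1.36 and 0.27) and the immediate early list in CNT (1.14 and -0.01) stand far apart between the pairs.

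Markers of injured tubules, of arrested cells and of other cell types were read in the same gates. Over the tubular injury list the medians were -0.05, 0.22, 0.38 and 0.04, and -0.23, 0.11, -0.04 and -0.43 in the KAP pair. Cell cycle inhibitors and p53 targets had 0.05, 0.12, 0.30 and 0.26, with 1 gene past 2-fold in any gate, in PC. In CNT both medians were smaller without barcodes of intercalated markers, at 0.14 for injury and 0.03 for arrest, and under TMM scaling, at 0.14 and 0.06. Redox genes had 0.04, 0.07, -0.03 and -0.05. Summed markers of endothelial cells (22.5 to 94.8 CPM), podocytes (7.28 to 63.4 CPM) and stromal cells (11.3 to 30.1 CPM) were low in both Tfeb fl/fl libraries.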

How the data were processed

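Single-cell libraries were made with the 10x Genomics 3' chemistry from renal cortex. Cell Ranger was run by the authors against mm10 (per the labels), and they then removed ambient RNA with SoupX and deposited whole-number counts per gene and barcode, which already hold that correction. What it took away is not recorded, so that a low level can have been reduced. From the deposited counts, gates were drawn as described, counts were summed per gate and library, and CPM, log2 ratios and exact (Clopper-Pearson) 95% intervals were computed. Intervals treat UMIs as independent and cover counting error only. With 1 library per group no test was run. Genes with a mean under 20 CPM over both libraries were left out, as were calls with an interval that held 0. Named were genes past 2-fold in every gate or in 1 only, and list members, and genes of at least 50 CPM among the 6 with the largest ratios in each gate and direction. The last choice, and Atp6v0a4, Apoe, Scg5, Id3 and other genes described singly, were made after their values were seen. The members and gene lists were chosen with earlier results of these data known, and nothing here is independent of that.

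Doublets were not removed in the main values, and Scrublet scores were used in an alternative. Thinned shares come from 2000 UMIs drawn per cell, and shallower cells (12 of 2613 young TAL barcodes, for example) were left out. Promoters were read from RefSeq sequences of GRCm38.p6 (mm10) and searched on both strands. Python 3.11.15 with NumPy 2.4.6, SciPy 1.17.1, pandas 2.3.3, scanpy 1.11.5 and matplotlib 3.10.9 was used, and R 4.3.3 with edgeR 4.0.16 (TMM factors) and DESeq2 1.42.0 (size factors) for scaling only. Recovery of known fold changes was tested on simulated data.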

Additional observations from a re-analysis of the deposited data

How the results depend on the processing

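Counts of called genes are given as higher and lower. TMM scaling gave 16 and 26 in DCT, 42 and 38 in CNT, 44 and 41 in PC and 1 gene higher in all 4 gates. DESeq2 size factors gave 13 and 29 in DCT, 41 and 38 in CNT, 43 and 42 in PC and 1 higher in all 4. The mean of CPM over cells gave 47 and 25 in CNT and 1 and 1 in all 4. Thinned cells gave 38 higher in TAL, 27 lower in CNT, 260 and 59 in PC, 1 lower in all 4 and 67 genes in 1 gate only. A mitochondrial limit of 20% gave 51 lower in TAL, 42 lower in DCT, 53 and 34 in CNT and 5 lower in all 4, over 2341 young and 948 aged barcodes. Leaving out doublets by Scrublet gave 0 lower in all 4, over 4579 young barcodes. Barcodes of a single gate (3631 and 1243) gave 54 lower in DCT, 199 and 39 in CNT and 36 in 1 gate only. A Slc34a1 limit of 1 gave 1 higher in all 4, over 4615 and 1656 barcodes. A minimum of 50 CPM gave 11 and 11 in TAL, 13 and 6 in DCT, 49 and 6 in CNT, 37 and 13 in PC, 1 and 0 in all 4 and 6 in 1 gate only, since fewer genes were tested. No minimum gave 537 and 476, 685 and 380, 935 and 363, 736 and 295, 64 and 47 in all 4 and 183 in 1 gate only, since more genes were tested. Of settings added after the data were seen, leaving out barcodes of intercalated markers gave 50 higher in CNT and 1 higher in all 4, over 4463 and 1697 barcodes, and leaving out the top 1% of barcodes per gene gave 6 and 0 in all 4 and 9 in 1 gate only. Apart from fewer or more genes or barcodes, the cause was not tested.

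Leaving out mitochondrial genes from the total and subtracting free RNA moved no count by over 1.5 times. Among barcodes of a single gate the log2 ratio of called genes turned to 1.51 for Aqp2, 0.21 for Aqp3 and 2.21 for Fxyd4 in TAL, to 0.59 and 0.34 for Cldn10 in DCT and CNT, and to 0.50 for Slc8a1 in PC. Without the top 1% of barcodes it turned to 1.14 for Aqp2 and 3.13 for Fxyd4 in TAL and to 0.31 for Kap in PC. Over the single genes named, 2714 values stayed within their counting interval, 2062 moved beyond it, some of genes short of 2-fold across 0 (Kl in PC, for example), and the 9 values of called genes just given turned.

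No paired analysis was possible because each condition is 1 library and the labels give no replicate numbers to pair. The design has no replicate, so that litter, digestion, hour of collection and age cannot be told apart within a pair, and the KAP pair is the only other measure of each ratio. The deposited counts were corrected for ambient RNA, and single low counts are the least sure. The aged PC gate, with 255 barcodes, is the smallest, and a single barcode there can decide a gene of low level.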

Other observations

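Genes that glucocorticoids induce were read as a further group, after Sgk1 had been seen to be lower. Of 16 genes, 11 were tested in CNT (10 higher) and 13 in PC (11 higher), and the medians were 0.61 and 0.57, beside -0.01 in TAL and 0.40 in DCT. The CNT median was 0.38 under TMM scaling, and the PC median 0.31 without barcodes of intercalated markers. In PC the genes past 2-fold higher included Cebpd, a transcription factor (1.39), and Sult1d1, a sulfotransferase (1.21), with 0.09 and 0.06 in the KAP pair. Tsc22d3, which encodes the glucocorticoid-induced leucine zipper, was at -0.90 and -0.35 in PC, Fkbp5, a chaperone of the receptor, at 0.36 and 0.95, and Sgk1 at -1.85 and 0.04. The list thus held genes of both directions, and its medians in the KAP pair were 0.36 in CNT and 0.04 in PC.

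Metallothioneins, which bind zinc and copper, had a list median of 1.0 in PC over 4 tested genes, all 4 higher and 2 past 2-fold, and of 0.26, 0.48 and 0.27 in TAL, DCT and CNT. In PC, Mt2 was at 1.71 and Mt1 at 1.12, and without barcodes of intercalated markers they were at 0.99 and 0.63. Cdkn2c, an inhibitor of cyclin-dependent kinases, was the only gene of its list past 2-fold higher in PC, at 1.08 and 1.83 in the KAP pair.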
